A study of Mus musculus with 8 samples.

Results

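miR-21 is a mature microRNA (miRNA) cut from the 5′ arm of the mir-21 hairpin, and 1 of the 505 array probes in the deposited data carries its name. It was taken by name, as mmu-miR-21 and not the passenger strand miR-21*, and followed by probe identifier into the authors' ratio table of 431 probes. The data come from 8 arrays of mouse embryonic fibroblasts (MEFs), the connective-tissue cells grown from embryos. The cells were ATM+/+ or ATM-/- littermates treated with neocarzinostatin (NCS), a drug that breaks both DNA strands, and were harvested at 0, 4, 8 and 24 h. ATM is the kinase that signals such breaks. Each genotype and time has 1 array, so 4 arrays are ATM+/+ and 4 are ATM-/-, and with so few arrays every value has limited precision. The sources used here give no drug dose, strain, embryo age or number of embryos behind each line. The arrays carry miRNA probes, so the Atm transcript was not measured and the genotypes rest on the labels. The study's question was how miRNA levels are controlled after DNA damage and whether this needs ATM.

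miRNAs are transcribed as longer precursors, trimmed by Drosha in the nucleus and by Dicer in the cytoplasm, and loaded into Argonaute, where bases 2 to 8 of the guide strand, the seed, choose the target messages. miR-21 is abundant in fibroblasts and in many tumours, is induced through the transcription factors AP-1 and STAT3, and represses growth and survival brakes such as Pdcd4 and Spry1. It is also a known driver of fibroblast activation in fibrosis, and its precursor is among those bound by the RNA-binding protein KSRP, which promotes processing.

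The guide strand and its passenger are shown first because the arms of this hairpin had different values between the genotypes. The next lines give the mouse relatives of miR-21, since a relative with almost the same letters could add signal to a probe. Sequences are from RefSeq (GRCm38.p6), 5′ to 3′, with the seed in capitals.
miR-21: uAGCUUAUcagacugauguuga
miR-21*: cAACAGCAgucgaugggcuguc
miR-21b: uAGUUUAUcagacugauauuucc
miR-21c: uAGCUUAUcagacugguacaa

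The mir-21 hairpin lies on chromosome 11 of GRCm38.p6 from 86584067 to 86584158 on the minus strand. It is inside the annotated span of Vmp1, a gene of the same strand that encodes a membrane protein of autophagy, and starts 209 bases from the lower end of that span. The guide covers 86584120 to 86584141 and the passenger 86584082 to 86584103. Of 1679 mature mouse miRNAs in the RefSeq table, 2 have the seed of miR-21, namely miR-21 and miR-21c. That table has no entry for miR-590-5p, which public seed families group with miR-21. Counted from the 5′ end of miR-21, miR-21b differs by C4U, G18A, G21U and A22C, of which C4U is in the seed. miR-21c differs at 5 of the 21 positions compared, all from A16G onward. The array names neither relative, and the sources used here do not say whether the probe tells them apart.

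miR-21 was one of the bright probes in ATM+/+ cells and lay under the median of the listed probes in all 4 ATM-/- arrays. The comparison sheets, 1 for each treated array with its 0 h array, give a normalized intensity per probe and array, with the spread between its spots. Each sheet lists the probes of 1 genotype and was scaled on its own, so the same 0 h array appears in 3 sheets on scales that differ by a constant factor. In ATM+/+ cells miR-21 had an intensity of 1059 at 0 h and 2461 at 4 h in the 4 h sheet. It had 1204 at 0 h and 2076 at 8 h in the 8 h sheet, and 1315 at 0 h and 3053 at 24 h in the 24 h sheet. All 3 treated ATM+/+ arrays were above the 0 h array in their own sheet.

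The ATM-/- intensity of miR-21 was 32.3 at 0 h and 45.4 at 4 h in the 4 h sheet. It was 34.2 at 0 h and 21.1 at 8 h in the 8 h sheet, and 26.5 at 0 h and 20.3 at 24 h in the 24 h sheet. One treated ATM-/- array was above its 0 h array and the other two were below. The highest ATM-/- intensity was far below the lowest ATM+/+ intensity, in sheets normalized separately. Higher ATM+/+ intensity was common: 44.9% of 178 probes were at least 2-fold brighter there at 0 h in the 4 h sheets. How many other probes had ranges that did not overlap was not counted.

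The brightness rank within an array does not depend on that scaling, though brightness also depends on the probe. In ATM+/+ cells miR-21 ranked 16 of 311 listed probes at 0 h in the 4 h sheet, 8 of 311 at 4 h, 9 of 298 at 8 h and 8 of 313 at 24 h. The ATM-/- rank was 138 of 185 at 0 h, shared with miR-150 and miR-672, then 130 of 185 at 4 h, 145 of 154 at 8 h and 124 of 126 at 24 h. Sheets list different numbers of probes, so the same was done over the 120 probes found in all 6 sheets. Among these, miR-21 ranked 16 at 0 h and 8 at 4, 8 and 24 h in ATM+/+ cells. It ranked 119 at 0 h in all 3 ATM-/- sheets, then 113, 116 and 119 at 4, 8 and 24 h.

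The probes next to it in brightness at 0 h differed between the genotypes. In ATM+/+ cells its intensity of 1059 lay between miR-711 at 1066 and miR-494 at 984, with miR-145, a smooth muscle and fibroblast miRNA, at 1070 and miR-22 at 970. miR-669c at 1298 and miR-744 at 862 were the next on either side. The coefficient of variation (CV) between spots was 4.66% for miR-21 and 5.76% to 10.4% for the nearest 4, so miR-145, miR-711 and miR-21 were not separated by the spread between spots. Its ATM-/- neighbours were miR-93 at 33.5, miR-702 at 32.7, miR-150 and miR-672 at 32.3, and miR-297a and miR-30b at 31.9.

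**Figure D1:**
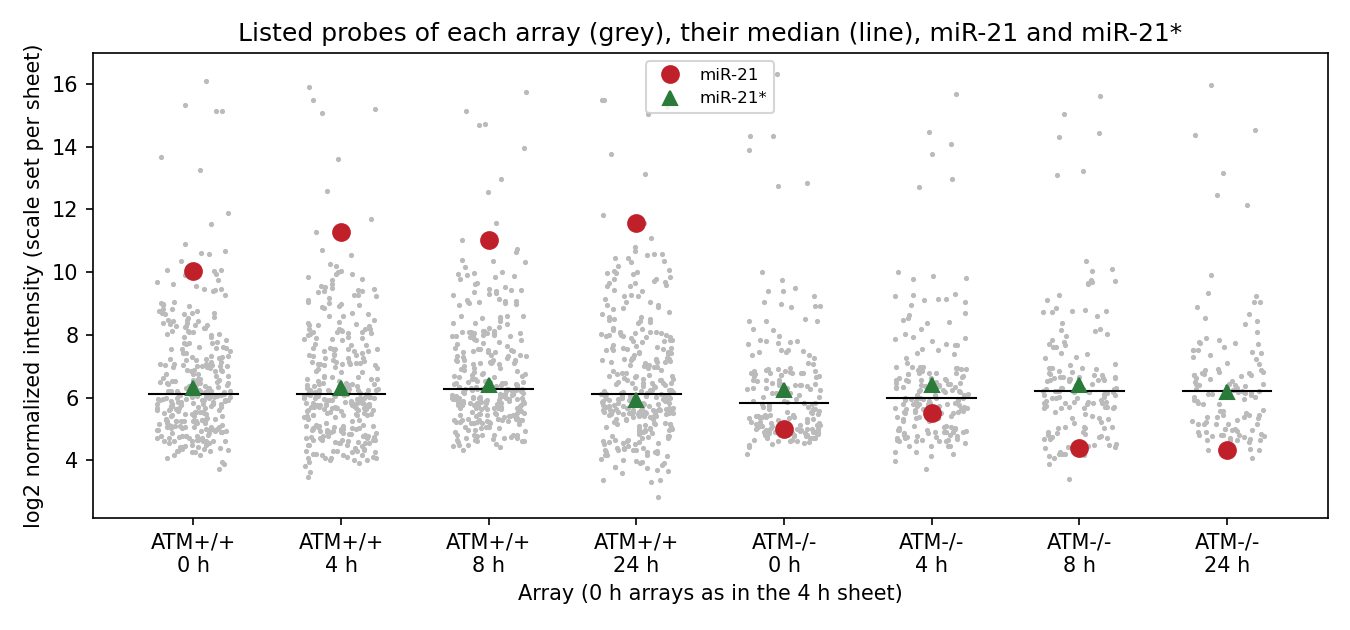
Log2 normalized intensity of every probe listed in a sheet (grey points) for each of the 8 arrays, with the array's median (line), miR-21 (circle) and miR-21* (triangle). miR-21 ranks 16 of 311 at 0 h and 8 or 9 after NCS in ATM+/+ cells and lies under the median in all 4 ATM-/- arrays (miR-21* is at 60.3 to 85.1 on the linear scale in all 8).

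Set side by side at the same time, the ATM+/+ intensity was 32.8, 35.3 and 49.6 times the ATM-/- intensity at 0 h in the 4, 8 and 24 h sheets. It was 54.3 times as high at 4 h, 98.5 times at 8 h and 150.5 times at 24 h. The ATM-/- intensities behind the 8 and 24 h values were under the 10th percentile of their sheets, and the 8 h one had a spot CV of 98.1%, so these folds are imprecise. On the log2 scale the differences in level were 5.04 to 5.63 at 0 h and 5.76, 6.62 and 7.23 at 4, 8 and 24 h. These values carry the separate normalization of the sheets and were not tested. With each array scaled to its median or its 75th percentile over the 120 shared probes, or quantile normalized over them, the log2 difference was 3.67 to 4.33 at 0 h and 4.58 to 5.95 after NCS. The difference was thus present at 0 h under each of these scalings.

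Probes listed in both genotypes were brighter in ATM+/+ cells as a whole, and miR-21 stood above all of them. Of the 178 probes compared at 0 h, 44.9% were at least 2-fold brighter in ATM+/+ cells, and the median log2 difference was 0.92. At 4, 8 and 24 h these shares were 33.7%, 43.5% and 65.3% of 178, 147 and 124 probes. In the 8 and 24 h sheets the 0 h arrays had shares of 52.4% and 71.8%. Each treated share was thus below the 0 h share of its own sheets, and shares from different sheets are not comparable. miR-21 had the highest log2 difference at 0, 4, 8 and 24 h, an order that a constant factor per array cannot alter. This held in each of the 6 pairings of sheet values, where the 0 h pairings repeat the same arrays on other scales. At 0 h in the 4 h sheets the next highest values were 3.70 for let-7a, 3.48 for let-7d and 3.43 for miR-199a-3p/miR-199b. At 24 h its 7.23 was followed by let-7a at 5.80. Probes that an ATM-/- sheet does not list could not be compared. In bulk RNA, fewer cells of a type and less RNA per cell cannot be told apart.

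The passenger strand of the same hairpin did not share this difference. miR-21* had an intensity of 78.7 in ATM+/+ and 76.4 in ATM-/- cells at 0 h in the 4 h sheets. The ATM+/+ intensity was 79.3 after 4 h, 85.0 after 8 h and 60.3 after 24 h of NCS, and the ATM-/- intensity was 85.1, 84.5 and 72.9. The genotypes overlapped, and the log2 difference ranged from -0.27 to 0.64 over the 6 pairings and was under the median of the compared probes in each. Its CV between spots was 0.81% to 10.97%. Levels of the arms were not set against each other, since different probes give different brightness for the same amount.

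**Figure D2:**
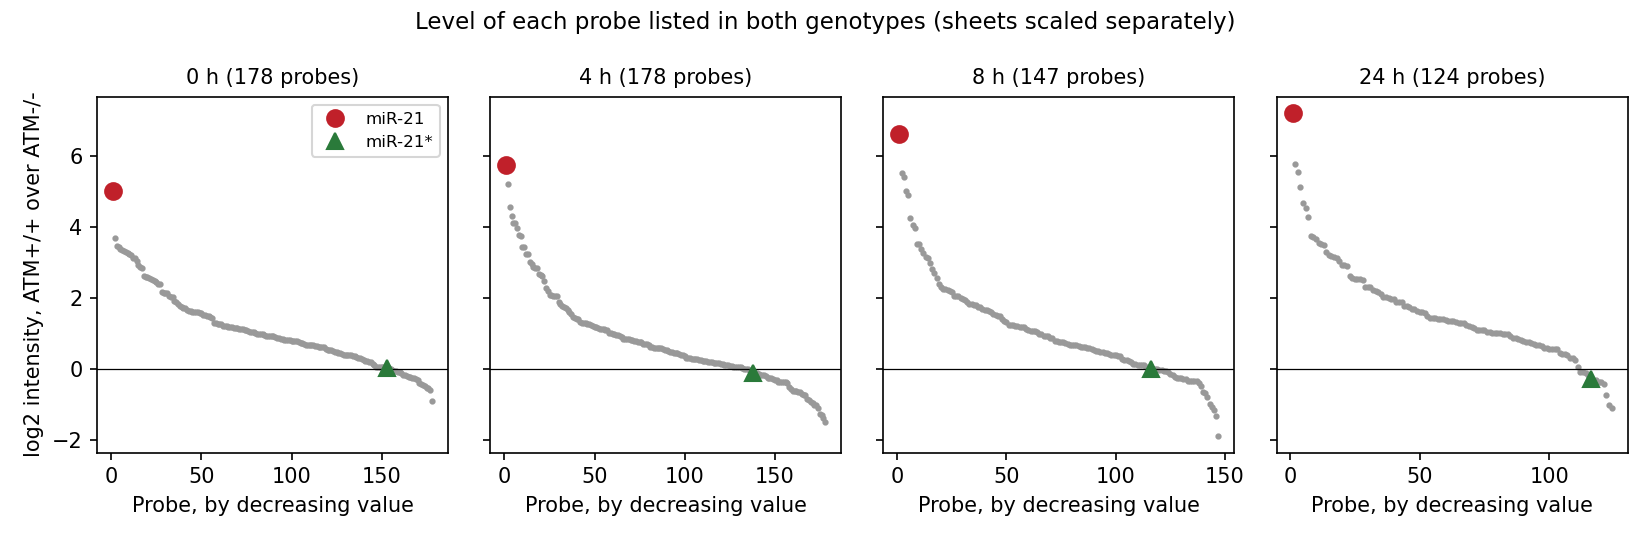
Log2 intensity in ATM+/+ over ATM-/- cells for every probe listed in both genotypes, ordered from highest to lowest, at 0, 4, 8 and 24 h (0 h from the 4 h sheets), with miR-21 as a circle and miR-21* as a triangle. miR-21 is the first probe at each time, from 5.04 to 7.23, and miR-21* lies between -0.27 and 0.04.

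The response to NCS was read from the authors' ratio table, in which each array is divided by the 0 h array of its genotype. In ATM+/+ cells the ratio of miR-21 to 0 h was 2.35 at 4 h, 1.93 at 8 h and 2.85 at 24 h. The log2 ratios were 1.23, 0.95 and 1.51, with a mean of 1.23 ± 0.28 (SD over 3 times, which share a 0 h array and are not replicates). Thus miR-21 was above 0 h at 3 of 3 times and at least 2-fold higher at 4 and 24 h. The share of all 431 probes that were at least 2-fold higher was 7.19%, 6.03% and 10.4% at 4, 8 and 24 h, and 6.03% on the mean. miR-21 ranked 14, 32 and 12 of 431 at these times and 13 on the mean, and the median probe had a mean log2 ratio of 0.01.

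The ATM-/- ratio was 1.58 at 4 h, 0.51 at 8 h and 1.18 at 24 h. The log2 ratios of 0.66, -0.97 and 0.24 had a mean of -0.02 ± 0.85 (SD over 3 times), so the arrays lay on both sides of 0 h. miR-21 was at least 2-fold higher at none of the 3 times, against 1.16%, 5.1% and 0.696% of all probes. Its rank was 18, 415 and 100 of 431. The SD over times was larger in ATM-/- than in ATM+/+ cells, and the probe was near the low end of the listed intensities there.

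The spread between spots followed the same division. In ATM+/+ cells the CV of miR-21 was 4.66% at 0 h and 5.78%, 5.69% and 7.62% at 4, 8 and 24 h, below the median of the listed probes in each array (9.20% to 11.3%). The ATM-/- CV was 15.4% at 0 h, 15.5% at 4 h, 98.1% at 8 h and 29.6% at 24 h, where the medians were 9.95% to 13.4%. At 8 h only 4 of the 154 listed probes had a higher CV. The 8 h intensity of 21.1 and the 24 h intensity of 20.3 were under the 10th percentile of their sheets (23.2 and 27.0). The ATM-/- log2 ratio at 8 h had a standard error of 0.83 from the spots alone, against 0.06 to 0.07 for the ATM+/+ ratios.

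The comparison sheets, the authors' deposited table of log2 ratios, gave ATM+/+ cells 1.22 at 4 h, 0.79 at 8 h and 1.22 at 24 h. For ATM-/- cells the authors' deposited table gave 0.49, -0.70 and -0.39, so the sign at 24 h was opposite to that of the ratio table. In ATM+/+ cells both sources put 8 h lowest, while 24 h was above 4 h only in the ratio table. Both put the ATM-/- level at 4 h highest and that at 8 h lowest, and they disagreed on whether 24 h lay above 0 h.

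The authors' deposited table gives p-values of 8.64e-05, 0.000322 and 0.000235 for miR-21 at 4, 8 and 24 h in ATM+/+ cells. After Benjamini-Hochberg adjustment over the sheet these were 0.00122, 0.00328 and 0.00216. For ATM-/- cells the p-values in the authors' deposited table were 0.0583, 0.347 and 0.212. All 1387 deposited p-values were matched within 1% by an equal-variance comparison of 3 spots with 3 spots, so they measure the spread between spots on 2 arrays and not between cultures. By that measure 33.1%, 27.2% and 24.6% of listed ATM+/+ probes were higher at an unadjusted p under 0.05, and 20%, 17.5% and 16.7% of ATM-/- probes. Counting both directions, the shares were 60.1%, 56.4% and 60.7% in ATM+/+ and 26.5%, 38.3% and 43.7% in ATM-/- cells.

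**Figure D3:**
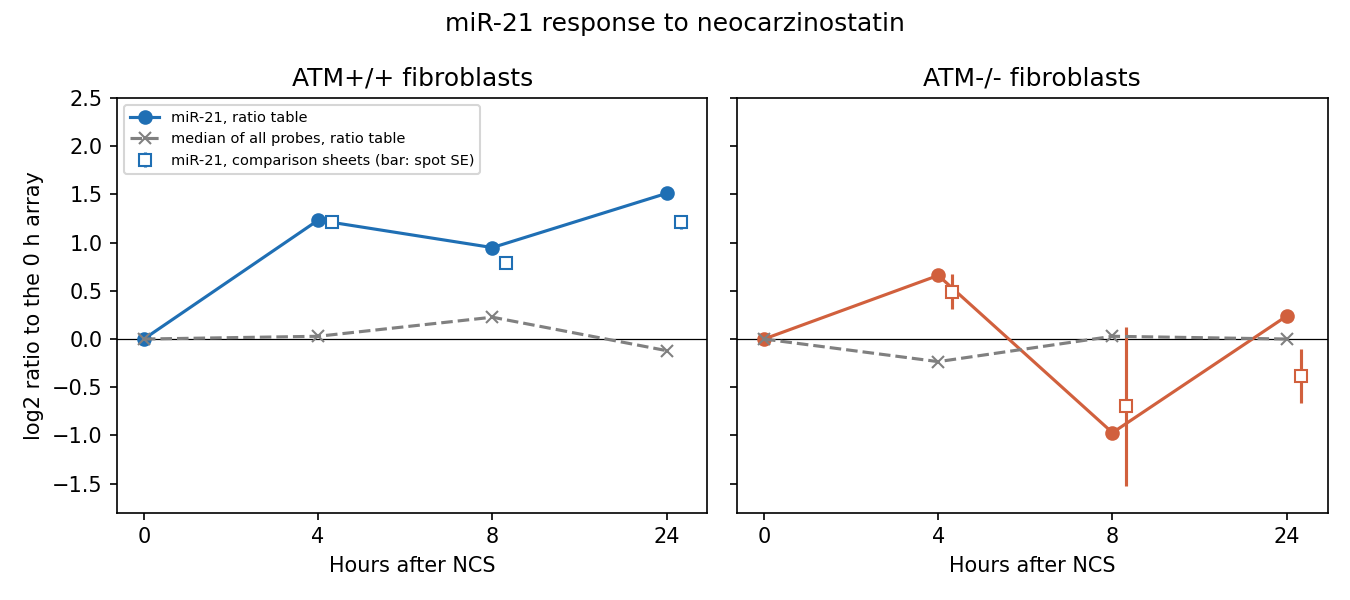
Log2 ratio of miR-21 to its genotype's 0 h array by hours after NCS, in ATM+/+ (left) and ATM-/- cells (right), from the ratio table (filled circles) and the comparison sheets (open squares, bars are the standard error from 3 spots per array), with the median of all 431 probes (crosses). The ATM+/+ values lie from 0.79 to 1.51, and the ATM-/- values run from 0.66 at 4 h to -0.97 at 8 h.

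The ATM+/+ response minus the ATM-/- response was 0.57 at 4 h, 1.92 at 8 h and 1.27 at 24 h, with a mean of 1.25 ± 0.67 (SD over 3 times). It was above 0 at 3 of 3 times, as it was for 32.3% of all probes, and its mean was at least 1, as for 9.98% of them. At single times a difference of at least 1 was found for 15.1%, 16.7% and 10.2% of probes, and for miR-21 at 8 and 24 h. It ranked 159, 6 and 27 of 431 at 4, 8 and 24 h and 20 on the mean. The 8 h value rests on the ATM-/- array with the 98.1% CV. Without 8 h the mean difference was 0.92.

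A limma fit over all 431 probes, with 4, 8 and 24 h standing in for replicates, gave miR-21 a log2 change of 1.23 ± 0.55 (SE) in ATM+/+ cells, with an adjusted p of 0.342. The change in ATM-/- cells was -0.02 ± 0.55 (SE, adjusted p = 0.996 in limma) and the difference was 1.25 ± 0.78 (SE, adjusted p = 0.741 in limma). None of the 3 passed the threshold of 0.05, and limma called 0 probes in each contrast, which is 0.0% of 431. At an unadjusted p under 0.05 limma had 60 probes (13.9%) for the ATM+/+ change, 4 (0.928%) for the ATM-/- change and 27 (6.26%) for their difference. miR-21 was among the 60, with an unadjusted limma p of 0.0468, and was not among the other sets. The model has 1 array at 0 h per genotype and takes its error from the spread over treated times.

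Arrays were printed 2 to a chip, and the higher miR-21 value was on the second position of each of the 4 chips. The ATM+/+ log2 step from position 1 to 2 was 1.23 on the chip with 0 and 4 h and 0.56 on the chip with 8 and 24 h, where the median probe moved by 0.03 and -0.19. The ATM-/- step was 0.66 on the first of these chips and 1.21 on the other, with medians of -0.23 and 0.05. Within a chip, position and time cannot be told apart. At equal position on separate chips, the ATM+/+ step was 0.95 between 0 and 8 h and 0.28 between 4 and 24 h. The same ATM-/- steps were -0.97 and -0.42. With position as a block, limma gave an ATM+/+ change of 0.62 ± 0.49 (SE, adjusted p = 0.769), an ATM-/- change of -0.64 ± 0.49 (SE, adjusted p = 0.987) and a difference of 1.25 ± 0.61 (SE, adjusted p = 0.645). A block for chip leaves only the step from 0 to 4 h to inform the comparison, and limma then gave a difference of 0.57 ± 0.98 (SE, adjusted p = 0.912).

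The passenger strand had no ratio in the ratio table and was read from the sheets. Its log2 ratio in the authors' deposited table was 0.01, -0.08 and -0.70 at 4, 8 and 24 h in ATM+/+ cells, with a deposited p of 0.91, 0.341 and 0.000943. For ATM-/- cells the authors' deposited table gave its ratio as 0.16, 0.07 and 0.22. At 24 h in ATM+/+ cells the guide was thus at 1.22 and the passenger at -0.70 in the same sheet of the authors' deposited table. miR-590-5p stood at 0.40, 0.05 and 0.23 in ATM+/+ cells in the authors' deposited table, below miR-21 at each time. The ATM-/- values in the authors' deposited table were -0.29 at 4 h, below miR-21, and 0.41 at 24 h, above the -0.39 of miR-21.

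The miRNAs with the most similar pattern were found by the root mean square difference of the 6 treated log2 ratios from those of miR-21, over the 271 other named probes of the ratio table. The 5 nearest were miR-26b at 0.33, miR-23b at 0.35, miR-199a-3p/miR-199b at 0.43, miR-34a at 0.43 and let-7f at 0.44, where the median was 0.999. miR-26b, a growth-restraining miRNA, had mean log2 ratios of 1.03 in ATM+/+ and -0.19 in ATM-/- cells. miR-23b had 1.10 and 0.19, and was at -0.15 at 8 h in ATM-/- cells, where miR-21 was at -0.97. miR-199a-3p/miR-199b, from a mesenchymal cluster, had 1.36 and -0.07, the p53-induced miR-34a 0.80 and -0.13, and let-7f, which represses growth-promoting genes, 1.40 and -0.01. All 5 had the lowest ATM-/- value at 8 h, as miR-21 did, and they share the arrays with it. The selection favours such a match, because the 8 h value is part of the difference used to choose them. Of the 5, miR-26b and let-7f are in none of the ATM-/- sheets and miR-34a is in 2, so their ATM-/- ratios have no listed intensity at some or all times.

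Sequences of nearest miRNAs held in RefSeq are given to compare their seeds with that of miR-21.
miR-26b: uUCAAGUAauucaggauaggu
miR-199a-3p: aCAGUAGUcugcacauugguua
miR-34a: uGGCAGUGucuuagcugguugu
let-7f: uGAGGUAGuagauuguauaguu

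None of these 4 has the seed AGCUUAU of miR-21, and no pair of them shares a seed. The RefSeq entries used lie on chromosomes 1, 1, 4 and 13 of GRCm38.p6.

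**Figure D4:**
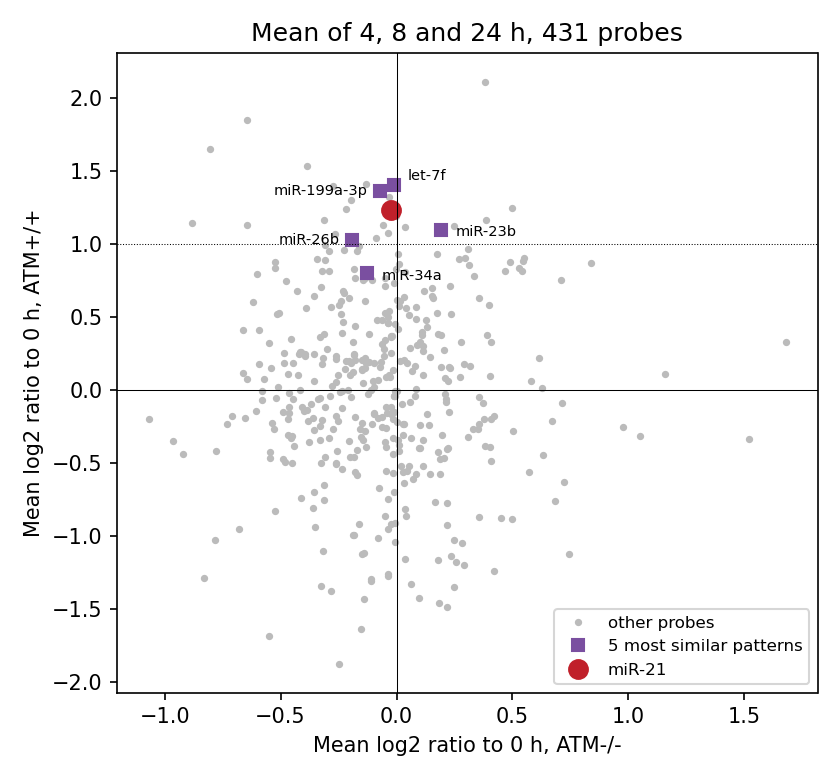
Mean log2 ratio to 0 h over 4, 8 and 24 h in ATM+/+ (vertical) against ATM-/- cells (horizontal) for 431 probes, with miR-21 (circle) and the 5 miRNAs of most similar pattern (squares); the dotted line marks a 2-fold higher mean. miR-21 is at 1.23 and -0.02.

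Groups of miRNAs that hold miR-21 by known role showed where it stood among relatives in function. Of 16 measured miRNAs linked to KSRP, 15 exceeded the 0 h array at each of the 3 times in ATM+/+ cells, against 33.6% of all probes, and 9 had a mean of at least 2-fold, against 6.03%. Their median mean log2 ratio was 1.04 in ATM+/+ and -0.02 in ATM-/- cells, against 0.01 and -0.06 over all probes. miR-21 ranked 5 of 16. The highest were let-7f at 1.40 and then let-7a, and the lowest were miR-106a at 0.37 and the muscle miRNA miR-206 at -0.61. Of the 16, 2 exceeded 0 h at each time in ATM-/- cells, against 14.4% of all probes, and none had a mean of at least 2-fold, against 0.928%. The let-7 probes target nearly identical sequences, so their values are not independent. Shares and medians of all probes, here and for the lists below, include 159 unnamed probes, which could not be list members. They therefore do not separate membership of a list from being a named probe. Shares over named probes alone were not counted.

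Among 10 measured miRNAs induced by stress or inflammation, 9 exceeded 0 h at each time in ATM+/+ cells (33.6% of all probes) and 4 had a mean of at least 2-fold (6.03% of all). miR-21 ranked 4, after miR-146a, a brake on inflammatory signalling, at 2.11, miR-34c at 1.85 and miR-34b-5p at 1.65, which p53 induces. Those 3 had 0 h intensities of 24.4, 22.3 and 18.0, against 1059 for miR-21 in the same sheet. At the lower end were miR-132 at 0.20 and miR-155, an immune cell regulator, at 0.15. The list median was 0.88 in ATM+/+ and -0.0044 in ATM-/- cells. In ATM-/- cells 4 of the 10 exceeded 0 h at each time, against 14.4% of all probes.

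Of 11 measured fibrosis-linked miRNAs, 8 exceeded 0 h at each time in ATM+/+ cells against 33.6% of all probes, 4 had a mean of at least 2-fold against 6.03%, and miR-21 was second after miR-199a-3p/miR-199b at 1.36. miR-30c followed at 1.15, with a 0 h intensity of 20.5. miR-155 and the muscle miRNA miR-133a closed the list at 0.15 and -0.94. The list median was 0.81 in ATM+/+ and -0.06 in ATM-/- cells. In ATM-/- cells 4 of the 11 exceeded 0 h at each time, against 14.4% of all probes.

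In a list of 13 growth-promoting miRNAs, only miR-21 had an ATM+/+ mean of at least 2-fold, against 6.03% of all probes. It also had the largest mean difference between the genotypes, 1.25 against 1.22 for the next member. Its difference exceeded that of this next member only at 8 h, where its ATM-/- spot CV was 98.1%. On the ATM+/+ mean miR-21 was followed by miR-18a of the miR-17-92 cluster at 0.90 and miR-221, which represses the cell cycle inhibitor p27, at 0.89. The lowest were miR-155 at 0.15 and miR-19a at -0.18. Here 11 of 13 exceeded 0 h at each ATM+/+ time, against 33.6% of all probes. The list median was 0.64 in ATM+/+ and 0.23 in ATM-/- cells, where all probes had 0.01 and -0.06. In ATM-/- cells 7 of the 13 exceeded 0 h at each time, against 14.4% of all probes.

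For comparison, 15 measured miRNAs abundant in mesenchymal cells, a list without miR-21, all exceeded 0 h at each time in ATM+/+ cells against 33.6% of all probes, and their median was 0.88. Of these, 5 had a mean of at least 2-fold against 6.03%, from let-7f at 1.40 downward, and the lowest were miR-27a at 0.77 and miR-145 at 0.52. The ATM-/- median was 0.18, and 8 of the 15 exceeded 0 h at each time there, against 14.4% of all probes. The ATM+/+ value of 1.23 for miR-21 was therefore inside the range of this list. The lists also share members other than miR-21, so their results are not independent. For example, miR-145 is in the KSRP-linked, fibrosis-linked and mesenchymal lists. Likewise miR-155 is in the stress or inflammation, fibrosis-linked and growth-promoting lists.

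**Figure D5:**
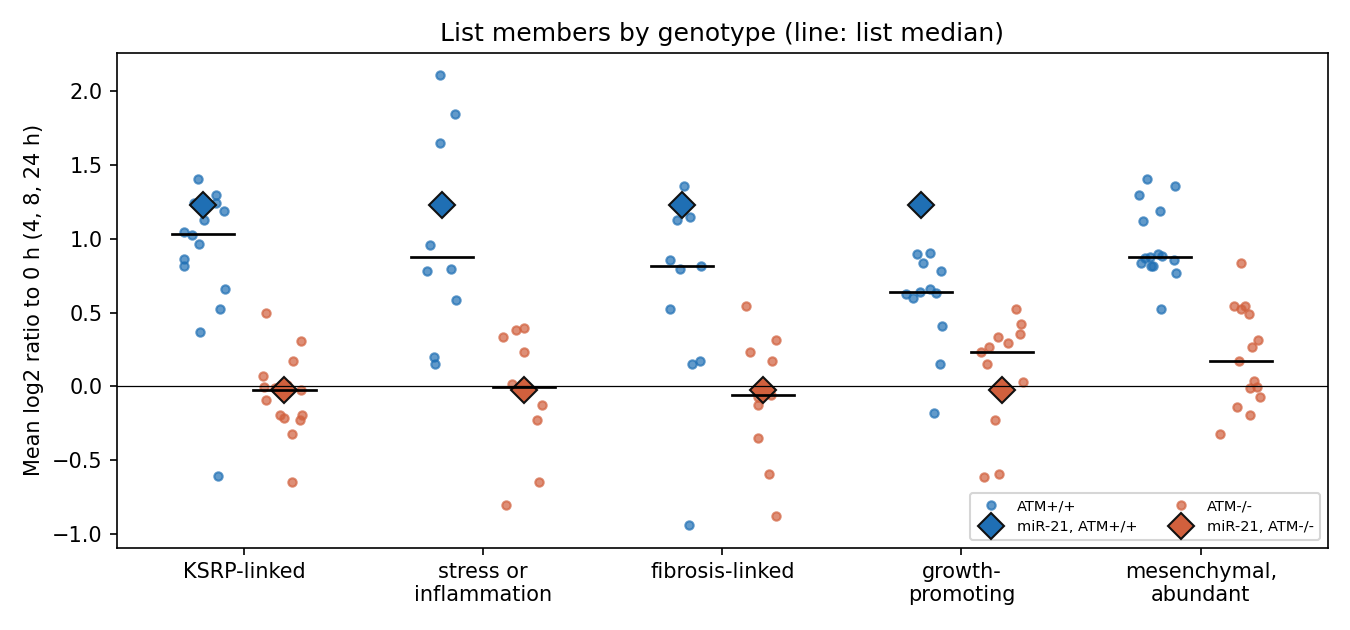
Mean log2 ratio to 0 h over 4, 8 and 24 h for the members of 5 lists in ATM+/+ (left of each pair) and ATM-/- cells (right), with list medians (lines) and miR-21 (diamonds). In ATM+/+ cells miR-21 is above the median of each list that holds it, and in ATM-/- cells it is at -0.02.

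Markers of other cells were looked at in the 4 h sheets at 0 h. All 5 fibroblast markers (miR-199a-5p, miR-199a-3p, miR-214, miR-143 and miR-145) were listed in both genotypes, with a summed intensity of 3220 in ATM+/+ and 1741 in ATM-/- cells. Blood, epithelial, neural and pluripotent markers were listed for 3, 3, 1 and 3 miRNAs in ATM+/+ and 1, 1, 0 and 1 in ATM-/- cells, with summed intensities of at most 446 and 164. Most of the epithelial sum was miR-141, at 368 in ATM+/+ and 164 in ATM-/- cells. That was above miR-199a-3p/miR-199b in both genotypes and above miR-143, at 111, in ATM-/- cells. Most of the ATM-/- fibroblast sum came from miR-145 and miR-214, at 1027 and 531. The 4 listed muscle miRNAs summed to 523 and 223, and no endothelial or liver marker was listed in these sheets. miR-145 had similar intensities in the genotypes, 1070 and 1027, and miR-199a-3p/miR-199b had 317 and 29.4, so the labelled cell type's markers differed in how far they stood apart. As deposited, in sheets scaled separately, all 5 had higher intensities in ATM+/+ cells. The log2 differences were 3.43 for miR-199a-3p/miR-199b, 3.27 for miR-199a-5p, 2.60 for miR-143, 0.51 for miR-214 and 0.06 for miR-145, against 5.04 for miR-21. The median of the 178 compared probes was 0.92, and miR-214 and miR-145 were below it. The part of the fibroblast markers in the miR-21 difference was not tested.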

How the data were processed

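Mature miRNAs were measured on 8 single-colour arrays, 1 per genotype and time, from 4 µg of total RNA per the labels. The authors deposited a table of ratios to the 0 h array for 431 probes (both 0 h columns hold 1) and 6 comparison sheets. Per the file headers, a sheet holds normalized intensity, a CV given as a ratio of the mean, a log2 ratio of treated over 0 h intensity, and a p-value, as deposited. Other deposited columns gave the position of each array on its chip. The sources used here do not give scanner settings, background correction or the rule for listing a probe. Deposited lists of slides, with names reading ATM- and AT+, linked each sheet to a genotype.

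Computed here were log2 ratios with no pseudocount, ranks, the mean and SD over times, spot-based standard errors (with 3 spots per array, the number that matched the deposited p-values), and limma 3.58.1 in R 4.3.3 (lmFit, eBayes, 4 residual degrees of freedom, Benjamini-Hochberg over all probes). The limma step was tested on simulated data. Python 3.11.15 and pandas 2.3.3 were used otherwise. A change of at least 2-fold or an adjusted p under 0.05 was called. Levels were not tested between genotypes, whose sheets were normalized separately. No replicate cultures exist, and spots are technical.

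The member, the lists and the tests were chosen with earlier results of these data known. Named miRNAs are miR-21, miR-21*, seed relatives, up to 3 rank neighbours on each side, the 5 most similar patterns, and for each list up to 4 extremes of the ATM+/+ mean (miR-34b-5p, miR-30c, let-7d, miR-214 and miR-143 were named beside them, after their values were seen). Alternatives were the sheets as source, array centring, quantile normalization, leaving out a time, named probes alone, an intensity trend, and time as a block. Chip and position as blocks were added after seeing the data.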

Additional observations from a re-analysis of the deposited data

Results flagged for a closer look

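Of the list members named in the text above, 4 had all 3 ATM+/+ arrays above 0 h and all 3 ATM-/- arrays below it. The mean difference of the log2 ratios, ATM+/+ minus ATM-/-, was 2.5 for miR-34c, 2.45 for miR-34b-5p, 2.03 for miR-30c and 0.91 for miR-27a. Other list members not named here showed the pattern too, and the share of all probes with it was not counted. In the 4 h sheet miR-34c, miR-34b-5p and miR-30c had ATM+/+ 0 h intensities of only 22.3, 18.0 and 20.5. None of the 4 had a listed ATM-/- intensity at 0 h in that comparison. These differences were not tested for the pattern itself. miR-21 did not show it, because its ATM-/- arrays lay on both sides of 0 h.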

How the results depend on the processing

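The mean ATM+/+ response of miR-21 (1.23) ranged from 1.07 with the log2 ratios of the authors' deposited table to 1.21 with quantile normalization, was 1.19 with centred arrays, and lay from 1.09 to 1.37 when 1 time was left out. The ATM-/- mean (-0.02) took either sign, from -0.20 in the authors' deposited table to 0.04 with centred arrays, and from -0.37 to 0.45 without 1 time, so it has no settled direction. The difference (1.25) lay from 1.14 to 1.28 under other scalings and sources and from 0.92 to 1.60 without 1 time. limma called 0 probes under all 9 other settings, and the adjusted p of miR-21 lay from 0.189 to 0.769 in ATM+/+ cells. With time as a block the changes were 1.57 in ATM+/+ and 0.32 in ATM-/- cells. With position as a block they were 0.62 and -0.64, and the ATM+/+ change was then the lowest of all settings. With chip as a block they were 1.23 and 0.66. The difference was 1.25 with position and 0.57 with chip as a block. The intensity trend and the restriction to named probes each tested 272 probes.

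The share of probes brighter than miR-21 depended on which probes were ranked. Over the 120 probes in all 6 sheets the ATM+/+ share was 12.5% at 0 h and 5.83% at each later time (4.82%, 2.25%, 2.68% and 2.24% over all listed probes). The ATM-/- share was 98.33% at 0 h and 93.33% at 4 h (74.05% and 69.73%). Over the probes in all 3 ATM-/- sheets these were 96.75% and 91.87%, and for the 0 h array 83.77% in the 8 h sheet and 96.03% in the 24 h sheet. These alternatives rank fewer probes. No replicate block could be fitted, since each group has 1 array and the labels carry no replicate numbers; blocks for time, chip and position were fitted instead. Low intensity limits the ATM-/- values, and no background measure was used.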
